A study of Mus musculus with 24 samples.

Results

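Transcripts of 10 amino acid transporters of the plasma membrane were followed among the 55385 gene identifiers counted in mouse hippocampus: Slc7a1, Slc7a3, Slc7a5, Slc7a11, Slc3a2, Slc1a4, Slc1a5, Slc38a1, Slc38a2 and Slc6a9. They were chosen by name as transporters placed under the transcription factor ATF4, and Slc7a3 was picked for its rise on day 8, so its values on day 8 are given as a description with no test. All 10 had enough counts to be tested in every comparison. RNA came from 24 adult mice in 6 groups of 4, and the paper states that both male and female mice were used. All mice carried floxed Tsc1 on both alleles and received tamoxifen. Control mice (Tsc1-Cre-) lacked the Camk2a-CreERT2 transgene and were taken on day 8 after the start of tamoxifen. Tsc1-Cre+ mice carried the transgene and were taken on day 4, 6, 8 or 13. Tsc1-Cre+-Rap 4 mice (rapamycin mice below) were Tsc1-Cre+ mice that received 10 mg/kg rapamycin, an inhibitor of the kinase complex mTORC1, every day from day 4 and were taken on day 13. Because Camk2a regulatory sequence drives the recombinase, Tsc1 is deleted in CAMK2A-expressing neurons and not in the other cells of the hippocampus, which were sequenced with them. The question was when transcripts of the transporters changed after Tsc1 deletion, and what they measured under rapamycin.

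ATF4 is a transcription factor whose translation rises when amino acids are short or when the integrated stress response or mTORC1 is active. Its targets include enzymes that make amino acids, enzymes that charge tRNAs and transporters that bring amino acids into the cell. The transporters here differ in cargo. SLC7A1 and SLC7A3 carry cationic amino acids such as arginine and lysine. SLC7A5 carries large neutral amino acids such as leucine, and SLC7A11 exchanges cystine for glutamate, each paired with the heavy chain SLC3A2. SLC1A4 and SLC1A5 exchange small neutral amino acids such as serine and alanine. SLC38A1 and SLC38A2 bring in glutamine and other neutral amino acids with sodium, and SLC6A9 takes up glycine.

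The libraries held 28208561 to 126435936 counted reads a mouse (median 55582027). Tsc1, the targeted gene, measured 105 ± 3.21 CPM (mean ± SD, n = 4 mice, CPM, a gene's counts relative to the library total after TMM scaling, which evens out differences in RNA composition) in controls and between 63.5 and 78.3 CPM in the means of the 5 Tsc1-Cre+ groups, and every Tsc1-Cre+ mouse lay below every control mouse. Markers of excitatory neurons, interneurons, astrocytes, microglia, oligodendrocytes and their precursors, endothelial cells and pericytes were found in every group, with no marker at or near 0. The summed level of 5 choroid plexus markers was 1677 CPM in control mouse B and 59.1 to 78.4 CPM in the other controls, and ranged from 43.7 to 1042 CPM (day 4), 44.3 to 1134 (day 6), 37.9 to 664.7 (day 8), 39.4 to 424.3 (day 13) and 43.3 to 530.5 under rapamycin. Animal numbers fall into series: control and day 8 mice share 2 of them, while days 4, 6 and 13 and the rapamycin mice have others. What a series stands for is not given in the sources used here, and outside day 8 time point and series cannot be told apart. In tissue RNA, fewer cells of a type and less RNA per cell cannot be told apart either.

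No transporter was called on day 4, 4 rose by day 6, and 5 of 9 and 7 of 10 rose by days 8 and 13. A gene was called when edgeR's quasi-likelihood test gave a Benjamini-Hochberg adjusted p under 0.05, over all genes tested, with an absolute log2 fold change over 0.5. On day 4, 0 of the 10 transporters were called, where 0.34% of all genes tested were called higher and 0.34% lower. Without the fold minimum edgeR passed 2 of the 10 (Slc7a5 and Slc38a2) and 1054 of the 25308 genes tested. At an unadjusted p under 0.05 it passed 3 of the 10 and 4654 of all genes. DESeq2 called 1 of the 10 (Slc1a5) and 184 of 16313 genes. The edgeR log2 fold change on day 4 was 0.53 for Slc1a5 and between -0.02 and 0.08 for Slc7a1, Slc3a2, Slc1a4, Slc38a1 and Slc6a9. On day 6, 4 of 10 rose and none fell, against 0.647% of all genes called higher and 0.678% called lower. Slc1a5 (0.21), Slc38a1 (0.04), Slc38a2 (0.19) and Slc6a9 (-0.07) did not pass the test on day 6. On day 8, 5 of the 9 without Slc7a3 rose, against 2.15% of all genes called higher and 1.84% called lower. On day 13, 7 of 10 rose, against 8.4% called higher and 8.06% called lower. The median log2 fold change of the counted transporters went from 0.08 (day 4) and 0.20 (day 6) to 0.54 (day 8) and 0.93 (day 13). The median over all genes tested was 0, -0.02, -0.03 and -0.04 in the same order. These 4 comparisons share the control mice. The counts of days 4, 6 and 13 include Slc7a3, whose day 8 rise was measured against the same controls.

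**Figure D1:**
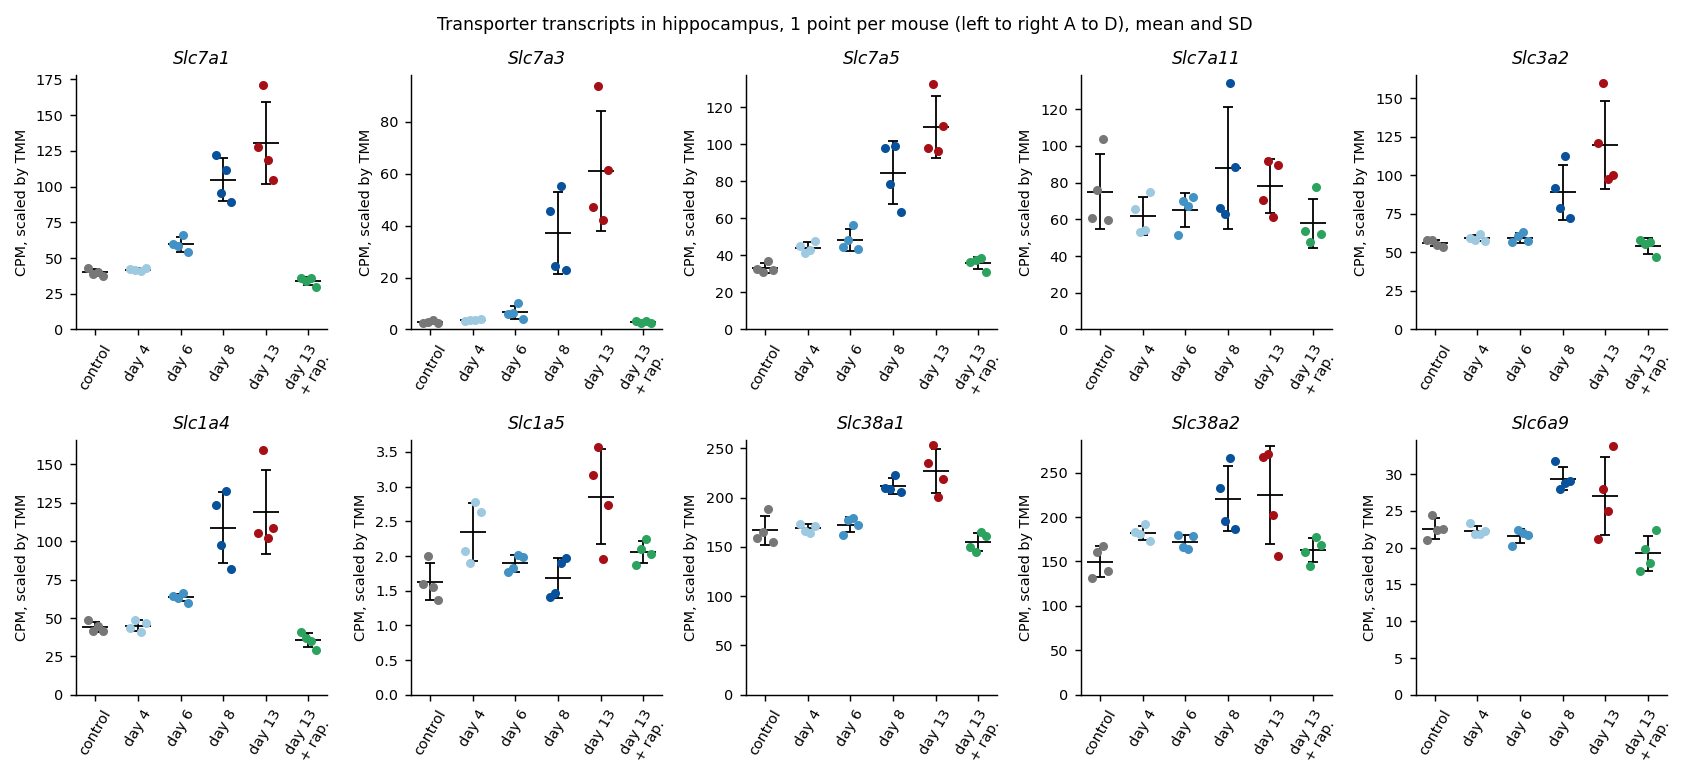
CPM scaled by TMM (vertical axes, starting at 0) of the 10 transporters in each mouse of the 6 groups (horizontal axes). Points are mice A to D from left to right, the horizontal bar is the mean and the whiskers the SD. Slc7a3 went from 2.57 to 3.65 CPM in controls to 42.2 to 93.6 CPM on day 13, while Slc7a11 overlapped between all neighbouring groups.

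Slc7a3 (ENSMUSG00000031297.14, chromosome X, 101079210 to 101086020 on the minus strand of GRCm38) measured 2.64, 2.89, 3.65 and 2.57 CPM in control mice A to D. It measured 3.16, 3.68, 3.47 and 4.04 CPM on day 4, and 5.88, 6.23, 10.2 and 4.18 CPM on day 6. Every day 6 mouse lay above every control and every day 4 mouse. On day 8 it measured 45.6, 24.6, 55.2 and 23.0 CPM, and on day 13 it measured 47.1, 93.6, 42.2 and 61.4 CPM. The mice of days 8 and 13 overlapped each other and lay above all mice of the earlier groups. Slc7a3 encodes the cationic transporter CAT3, which is known mainly from brain. Its log2 fold change against control was 0.29 on day 4 (standard error 0.136, edgeR adjusted p = 0.288), 1.16 on day 6 (standard error 0.217, edgeR adjusted p = 0.00464) and 4.35 on day 13 (standard error 0.26, edgeR adjusted p = 6.56e-05). The day 13 value is a 20.4-fold rise with a 95% interval of 3.77 to 4.93 on the log2 scale. On day 8 the log2 fold change was 3.64, a 12.4-fold difference, by which the gene was picked. The tests against control on the other days use the same control mice and are not independent of that choice. Slc7a3 was also higher on day 6 than on day 4, by 0.87 on the log2 scale (edgeR adjusted p = 0.0265), where 1 of the 10 transporters was called against 0.246% of all genes called higher and 0.357% lower. That call was lost without day 4 mouse A (0.83, edgeR adjusted p = 0.0632), B (0.89, edgeR adjusted p = 0.0645) or C (0.86, edgeR adjusted p = 0.0705) and without day 6 mouse B (0.90, edgeR adjusted p = 0.0542) or C (0.59, edgeR adjusted p = 0.0596). It was also lost in edgeR on all 24 mice (0.89, edgeR adjusted p = 0.29).

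Slc7a1 (ENSMUSG00000041313.14, chromosome 5, 148327410 to 148399904 on the minus strand), which encodes the widely expressed cationic transporter CAT1, also rose from day 6. It measured 42.8, 39.0, 40.5 and 37.5 CPM in controls A to D, and 42.2, 41.5, 41.2 and 43.1 CPM on day 4. It measured 59.7, 58.2, 66.2 and 53.9 CPM on day 6, 122.3, 95.2, 111.9 and 89.6 CPM on day 8, and 127, 171, 118 and 105 CPM on day 13. Controls and day 4 overlapped, day 6 lay above both, and day 8 lay above day 6. The log2 fold change against control was 0.57 on day 6 (edgeR adjusted p = 6.93e-05), 1.38 on day 8 (edgeR adjusted p = 2.06e-05) and 1.68 on day 13 (standard error 0.13, edgeR adjusted p = 1.58e-04), the last being 3.22-fold. Per kb of exon, the scale on which levels of different genes can be compared, the ratio of Slc7a3 to Slc7a1 was 0.224 ± 0.037 (SD, n = 4 mice) in controls and 0.333 ± 0.0991 on day 6. It was 1.05 ± 0.343 on day 8, 1.42 ± 0.361 on day 13 and 0.256 ± 0.0319 under rapamycin. On that scale Slc7a3 was thus the lower of the pair in every control mouse, where the ratio was at most 0.275, and the higher in every day 13 mouse, where it was at least 1.09.

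**Figure D2:**
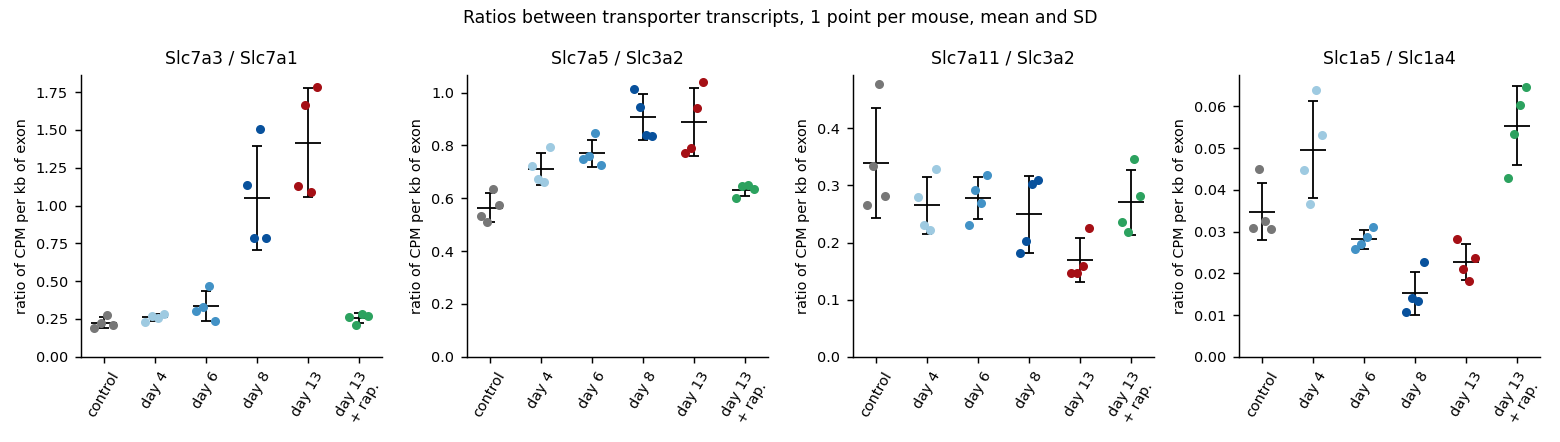
Ratio of CPM per kb of exon (vertical axes, starting at 0) between pairs of transporters in each mouse of the 6 groups, with mean and SD. The ratio of Slc7a3 to Slc7a1 was 0.188 to 0.275 in controls and 1.09 to 1.79 on day 13, and that of Slc1a5 to Slc1a4 was at most 0.0647.

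Slc7a5 (chromosome 8, 121881150 to 121907694, minus strand) and Slc3a2 (chromosome 19, 8706882 to 8723369, minus strand) encode the light chain LAT1 and the heavy chain of the leucine transporter. Slc7a5 measured 32.5, 31.0, 36.8 and 32.4 CPM in controls A to D, 44.9, 41.1, 42.9 and 48.0 CPM on day 4 and 44.5, 48.4, 56.4 and 43.6 CPM on day 6. On day 8 it measured 97.9, 78.5, 99.3 and 63.6 CPM, and on day 13 98.0, 132.7, 96.4 and 109.8 CPM. Slc7a5 and Slc38a2 were the 2 transporters whose day 4 mice all lay above all controls, and the share of all genes that did so was not counted. The day 4 log2 fold change of Slc7a5, 0.42 (standard error 0.0636, edgeR adjusted p = 0.00482), was under the fold minimum. It rose by 0.53 on day 6 (edgeR adjusted p = 8.61e-04), 1.34 on day 8 (edgeR adjusted p = 1.98e-04) and 1.70 on day 13 (standard error 0.104, edgeR adjusted p = 7.27e-05). The day 6 call was lost without control mouse B (0.50, edgeR adjusted p = 0.00284) or day 6 mouse C (0.45, edgeR adjusted p = 0.00219), where the fold change was under the minimum, and with Xist as a covariate (0.50, edgeR adjusted p = 0.00945).

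Slc3a2 was first called on day 8. It measured 58.1, 57.7, 55.1 and 53.5 CPM in controls and stayed between 56.7 and 63.5 CPM in every mouse of days 4 and 6. On day 8 it measured 91.9, 78.9, 112.6 and 72.5 CPM, and on day 13 120.9, 159.6, 97.2 and 100.3 CPM. No mouse of days 8 and 13 overlapped the earlier groups. The log2 fold change of Slc3a2 was 0.07 on day 6 (edgeR adjusted p = 0.326), 0.65 on day 8 (standard error 0.112, edgeR adjusted p = 0.00436) and 1.07 on day 13 (standard error 0.136, edgeR adjusted p = 0.00106). Per kb of exon, the ratio of Slc7a5 to Slc3a2 was 0.564 ± 0.0548 (SD, n = 4 mice) in controls, 0.712 ± 0.0602 on day 4 and 0.77 ± 0.0528 on day 6. It was 0.909 ± 0.0876 on day 8, 0.887 ± 0.129 on day 13 and 0.632 ± 0.0226 under rapamycin. The light chain was thus close to the heavy chain in level on days 8 and 13.

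Slc7a11 (chromosome 3, 49892526 to 50443614, minus strand), which encodes the cystine transporter xCT, was called in none of these comparisons, although 2 copies of an ATF4-type motif stand next to its start. It measured 60.8, 76.0, 103.6 and 59.6 CPM in controls A to D, 52.9 to 74.8 CPM on day 4 and 51.7 to 72.0 CPM on day 6. It measured 66.0, 62.9, 134.4 and 88.8 CPM on day 8, 70.4, 91.9, 61.0 and 89.4 CPM on day 13 and 53.8, 47.7, 77.6 and 51.9 CPM under rapamycin. The groups overlapped throughout, and the coefficient of variation among the 4 controls was 27.3%. The log2 fold change was -0.28 (day 4), -0.21 (day 6), 0.22 on day 8 (95% interval -0.31 to 0.74, edgeR adjusted p = 0.594) and 0.04 on day 13 (95% interval -0.38 to 0.46, edgeR adjusted p = 0.895). The gene's longest transcript holds a stretch of about 373 bases that is over 95% identical to Tuba1a and several pseudogenes, so that part of its count is uncertain. Its promoter is shown because it carries the motif 2 times. TGATGNAA, the core of the C/EBP-ATF response element to which ATF4 binds with a partner, was searched on both strands from 250 bases before to 50 after each RefSeq gene start. The sequence runs 5′ to 3′ on the gene's strand from 110 bases before the start to 10 after it, at chr3:50443604-50443723 of GRCm38.p6, and capitals mark the matches, which do not overlap each other:
Slc7a11: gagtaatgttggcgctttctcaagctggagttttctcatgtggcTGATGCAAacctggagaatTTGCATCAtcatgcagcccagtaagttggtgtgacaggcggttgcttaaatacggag
The first match reads on the gene's strand and begins 66 bases before the start, and the other reads on the opposite strand and begins 47 before it. Of the 32851 windows searched, 3.97% hold at least 1 match. Counted by gene, as for the lists here, 4.51% of 27025 genes have a window with a match, and of the 6 transporters with a window, 2 do (Slc7a11 and Slc1a4). Slc7a1, Slc3a2, Slc38a2 and Slc6a9 have windows without these letters, and sequence outside the windows was not searched. Slc7a3, Slc7a5, Slc1a5 and Slc38a1 had no window, so nothing is known here of the motif at their starts. The motif was also present for 8 of 22 ATF4 pathway genes with a window, among them Trib3, Chac1 and Asns. A match is a string of letters and not a measured binding site.

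Slc1a4 (chromosome 11, 20302180 to 20332713, minus strand) and Slc1a5 (chromosome 7, 16781340 to 16798274, plus strand) encode the neutral amino acid exchangers ASCT1 and ASCT2. Slc1a4 measured 48.7, 41.8, 44.9 and 41.7 CPM in controls A to D, and 43.4, 48.9, 40.9 and 46.5 CPM on day 4. It measured 64.1, 63.3, 66.1 and 59.99 CPM on day 6, 123.5, 97.5, 132.4 and 82.2 CPM on day 8, and 105.4, 159.5, 101.8 and 108.6 CPM on day 13. Day 6 lay above controls and day 4, and day 8 above day 6, with no overlap. The log2 fold change was 0.51 on day 6 (edgeR adjusted p = 5.96e-05), 1.28 on day 8 (edgeR adjusted p = 2.92e-04) and 1.40 on day 13 (standard error 0.134, edgeR adjusted p = 3.89e-04). The day 6 value stood at the fold minimum, and the call was lost without control mouse B (0.48), control mouse D (0.48) or day 6 mouse C (0.49), each at an edgeR adjusted p of at most 5.23e-04. It was also lost in edgeR on all 24 mice (0.52, edgeR adjusted p = 0.0639) and with Xist as a covariate (0.47, edgeR adjusted p = 7.7e-04). The promoter of Slc1a4 is shown for its 1 match, on the opposite strand and spanning the start, at chr11:20332704-20332823, over the same distances and with the match in capitals:
Slc1a4: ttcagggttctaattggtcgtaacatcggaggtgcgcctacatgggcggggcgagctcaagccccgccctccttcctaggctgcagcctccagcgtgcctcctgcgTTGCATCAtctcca
The same 8 letters thus stand near the starts of 1 transporter that rose and 1 that was not called.

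Slc1a5 was scarce, with 69 to 418 counts in a mouse of day 13 and 71 to 120 in a control. It measured 1.596, 2.00, 1.56 and 1.36 CPM in controls A to D, 2.07, 1.90, 2.78 and 2.63 CPM on day 4 and 1.77 to 2.02 CPM on day 6. It measured 1.40, 1.47, 1.89 and 1.98 CPM on day 8 and 3.17, 3.56, 1.96 and 2.74 CPM on day 13, and 1.87 to 2.25 CPM under rapamycin. Neighbouring groups in the order of their means all overlapped. Slc1a5 rose on day 13 by 0.80 on the log2 scale (standard error 0.204, edgeR adjusted p = 0.0192), though day 13 mouse C lay below control mouse B. The day 13 call was lost without control mouse A (0.79, edgeR adjusted p = 0.0528), C (0.77, edgeR adjusted p = 0.0589) or D (0.72, edgeR adjusted p = 0.0616). On day 8 the log2 fold change was 0.03 (95% interval -0.36 to 0.43). Per kb of exon, Slc1a5 stood at 0.0348 ± 0.00689 of Slc1a4 in controls and at 0.0152 ± 0.00515 on day 8 (SD, n = 4 mice).

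Slc38a1 (chromosome 15, 96571418 to 96642913) and Slc38a2 (chromosome 15, 96687392 to 96699730) are neighbours on the minus strand and encode the sodium-coupled transporters SNAT1 and SNAT2. Neither changed by more than 1.47-fold against control. Slc38a1 measured 159.2, 164.9, 188.2 and 155.2 CPM in controls A to D, 164.4 to 173.0 CPM on day 4 and 161.9 to 179.2 CPM on day 6. It measured 209.5, 209.1, 222.9 and 205.3 CPM on day 8 and 234.6, 253.1, 200.5 and 218.4 CPM on day 13. No mouse of days 8 and 13 overlapped the controls. Its log2 fold change was 0.33 on day 8 (standard error 0.0636, edgeR adjusted p = 0.00758) and 0.42 on day 13 (edgeR adjusted p = 0.0073), under the fold minimum on both days. Slc38a2 measured 131.7, 161.0, 167.5 and 139.2 CPM in controls, 183.3, 180.4, 192.2 and 173.4 CPM on day 4 and 164.4 to 179.8 CPM on day 6. Its day 4 log2 fold change of 0.28 (edgeR adjusted p = 0.0387) was under the fold minimum. It measured 232.9, 196.0, 266.9 and 186.9 CPM on day 8 and 267.6, 270.7, 202.8 and 156.2 CPM on day 13. Day 8 mice lay above all controls, whereas day 13 mouse D lay within the control range. Slc38a2 rose by 0.54 on day 8 (standard error 0.112, edgeR adjusted p = 0.0103) and by 0.56 on day 13 (standard error 0.161, edgeR adjusted p = 0.0301). The day 8 call was lost without control mouse A (0.49, edgeR adjusted p = 0.0353) or day 8 mouse C (0.44, edgeR adjusted p = 0.0128). The day 13 call was lost without any single control mouse (0.51 to 0.62, edgeR adjusted p = 0.0513 to 0.0849) and without day 13 mouse A (0.47, edgeR adjusted p = 0.0725) or B (0.47, edgeR adjusted p = 0.0706). It was also lost with Xist as a covariate (0.46, edgeR adjusted p = 0.0668).

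Slc6a9 (chromosome 4, 117834506 to 117875198, plus strand), which encodes the glycine transporter GlyT1, measured 20.98, 24.5, 22.4 and 22.5 CPM in controls A to D, 21.8 to 23.3 CPM on day 4 and 20.2 to 22.4 CPM on day 6. It measured 31.7, 27.96, 28.8 and 29.1 CPM on day 8 and 21.2, 27.96, 24.99 and 33.8 CPM on day 13. Day 8 mice lay above all controls and day 13 mice did not. The log2 fold change was 0.37 on day 8 (standard error 0.0644, edgeR adjusted p = 0.00487), under the fold minimum, and 0.24 on day 13 (edgeR adjusted p = 0.215). Its exons share 1429 bases with Ccdc24 and 511 with Gm17114 on the opposite strand. The strand setting of the counting is not given in the sources used here, so part of this count is uncertain.

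Levels can be ranked between genes only per kb of exon. In controls, Slc38a2 stood highest at 17.0 ± 1.94 CPM per kb (SD, n = 4 mice), with Slc3a2 next at 15.9 ± 0.618, less than an SD apart, and then Slc1a4 at 11.3 ± 0.847. Slc38a1 (9.68 ± 0.858) and Slc7a5 (8.95 ± 0.674) followed, again within an SD of each other. Slc7a11, Slc6a9 and Slc7a1 lay between 3.46 and 5.39 CPM per kb, and Slc7a3 (0.776 ± 0.131) and Slc1a5 (0.390 ± 0.0645) stood last. On day 13 Slc3a2 (33.9 ± 8.13), Slc1a4 (30.3 ± 6.94), Slc7a5 (29.5 ± 4.52) and Slc38a2 (25.4 ± 6.24) stood highest and within about an SD of their neighbours. Slc7a3, at 16.1 ± 6.12 CPM per kb, stood between these and Slc38a1 (13.1 ± 1.30) and Slc7a1 (11.3 ± 2.50). Under rapamycin Slc7a3 was again at 0.756 ± 0.124, ninth of the 10, and Slc1a5 last at 0.494 ± 0.0371. Merged exon length stands for transcript length here, so a gene with long or rarely used exons is placed too low.

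**Figure D3:**
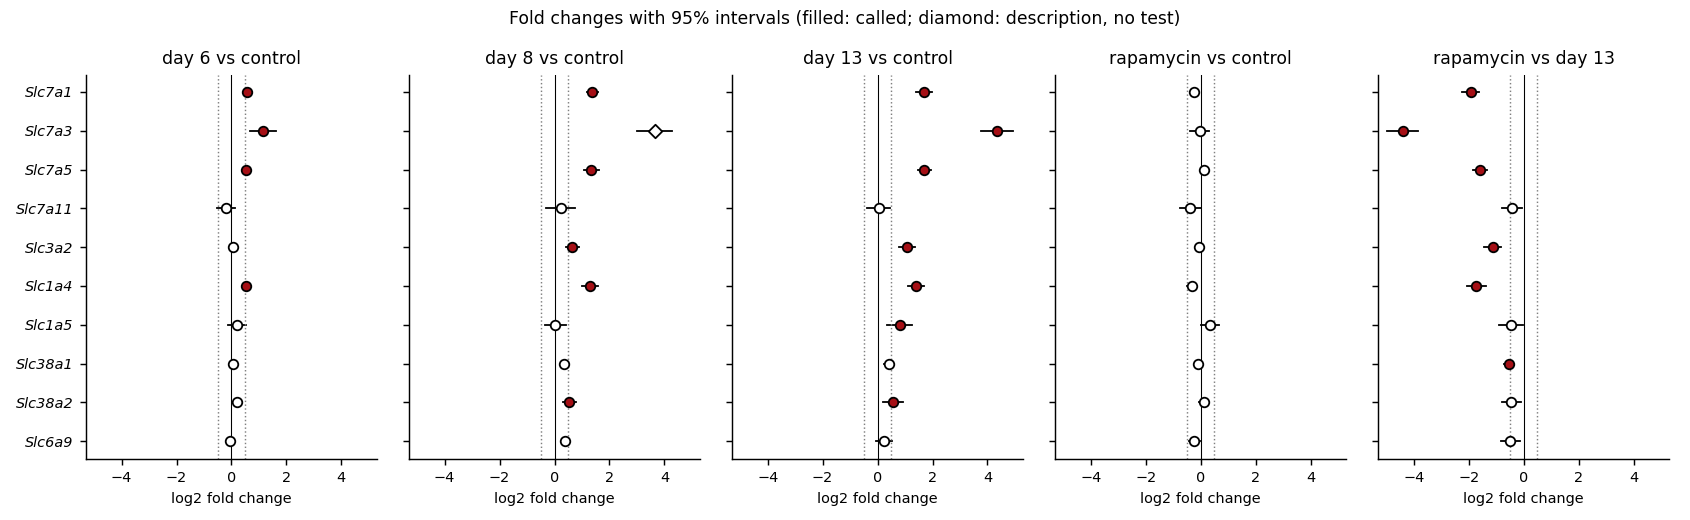
Log2 fold changes (horizontal axes) of the 10 transporters (rows) in 5 comparisons of 4 mice with 4, with 95% intervals. Filled circles were called, open circles were not, the diamond is Slc7a3 on day 8, which is a description with no test, and dotted lines mark the fold minimum of 0.5. Under rapamycin no transporter was called against control, and 6 were called lower than on day 13.

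Neighbouring time points were compared as well. From day 4 to day 6, Slc7a1 (0.49) and Slc1a4 (0.48) passed the adjusted p (edgeR adjusted p = 2.23e-04 for each) but not the fold minimum. Slc7a5 (0.11), Slc7a11 (0.06), Slc3a2 (-0.01), Slc1a5 (-0.32), Slc38a1 (0.02), Slc38a2 (-0.09) and Slc6a9 (-0.06) did not pass the test. Of the 9 transporters without Slc7a3, 3 were called higher on day 8 than on day 6: Slc7a1 by 0.80 on the log2 scale (edgeR adjusted p = 0.0189), Slc7a5 by 0.80 (edgeR adjusted p = 0.0396) and Slc1a4 by 0.77 (edgeR adjusted p = 0.0327). Of all genes tested, 0.181% were called higher and 0.0482% lower. Slc38a1 (0.28, edgeR adjusted p = 0.0417) and Slc6a9 (0.43, edgeR adjusted p = 0.0262) passed the adjusted p but not the fold minimum, while Slc3a2 (0.57, edgeR adjusted p = 0.0565), Slc38a2 (0.34), Slc7a11 (0.42) and Slc1a5 (-0.18) did not pass it. The value of Slc7a3, 2.47, is a description. All 3 calls were lost without any single day 6 mouse or without day 8 mouse A, with fold changes of 0.76 to 0.85 for Slc7a1, 0.76 to 0.88 for Slc7a5 and 0.74 to 0.78 for Slc1a4 without a day 6 mouse, and of 0.72, 0.73 and 0.70 without day 8 mouse A. With Xist as a covariate 0 of 24871 genes were called. There Slc7a1 stood at 0.72 (edgeR adjusted p = 0.176), Slc7a5 at 0.69 (edgeR adjusted p = 0.263) and Slc1a4 at 0.62 (edgeR adjusted p = 0.221). Between days 8 and 13, 0 of the 9 were called, where edgeR called 0% of all genes in either direction. At an unadjusted p under 0.05 the edgeR test passed 3479 genes and 3 of the 9 transporters, DESeq2 called 238, and edgeR fitted on all 24 mice called 1343, 1 of the 9 transporters among them (Slc1a5, 0.78, edgeR adjusted p = 0.00802). The log2 difference from day 8 to day 13 was 0.30 for Slc7a1 (95% interval -0.03 to 0.63), 0.41 for Slc3a2 (0.03 to 0.80) and 0.01 for Slc38a2 (-0.38 to 0.40). It was 0.35 for Slc7a5, -0.18 for Slc7a11, 0.11 for Slc1a4, 0.76 for Slc1a5, 0.09 for Slc38a1 and -0.14 for Slc6a9, and 0.71 for Slc7a3 as a description.

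Under rapamycin the transporters lay near their control levels. Against control, 0 of 10 were called by edgeR, where 0.372% of all genes were called higher and 1.04% lower. DESeq2 called none of the 10 either, and 450 of 19312 genes. Without the fold minimum edgeR passed none of the 10 at an adjusted p under 0.05, and 892 of the 25006 genes tested. At an unadjusted p under 0.05 it passed 5 of the 10 and 4525 of all genes. Slc7a3 measured 3.09, 2.35, 3.39 and 2.62 CPM in rapamycin mice A to D, a log2 difference from control of -0.04 (95% interval -0.39 to 0.30). Slc7a1 measured 35.8, 33.9, 36.2 and 29.9 CPM, and Slc1a4 measured 41.0, 36.9, 35.0 and 29.5 CPM. All 4 rapamycin mice lay below all 4 controls for both, with log2 differences of -0.23 for Slc7a1 (edgeR adjusted p = 0.0745) and -0.32 for Slc1a4 (edgeR adjusted p = 0.0645), which did not pass the test. The share of all genes that parted from the controls in this way was not counted. Slc7a5 measured 36.4, 37.5, 38.7 and 31.2 CPM and Slc3a2 57.8, 55.3, 56.7 and 46.8 CPM, both overlapping the controls. Slc38a1 measured 150.0, 145.0, 164.6 and 161.2 CPM, Slc38a2 160.2, 145.0, 177.5 and 168.6 CPM and Slc6a9 16.9, 19.8, 17.9 and 22.4 CPM, which also overlapped the controls. The log2 differences of these genes from control were 0.12 for Slc7a5, -0.05 for Slc3a2, -0.10 for Slc38a1, 0.12 for Slc38a2 and -0.23 for Slc6a9, and that of Slc7a11 was -0.38 (edgeR adjusted p = 0.274). Slc1a5 was the transporter with the highest value against control, at a log2 difference of 0.34 (edgeR adjusted p = 0.27).

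Against day 13 mice without the drug, 6 of 10 transporters were lower in rapamycin mice and none was higher, against 11.2% of all genes called lower and 9.94% higher. Slc7a3 was 21.2-fold lower (-4.41 on the log2 scale, standard error 0.26, edgeR adjusted p = 9.63e-05). Slc7a1 was 3.81-fold lower (-1.93, edgeR adjusted p = 9.63e-05), Slc1a4 3.31-fold (-1.73, edgeR adjusted p = 1.92e-04) and Slc7a5 3.01-fold (-1.59, edgeR adjusted p = 9.63e-05). Slc3a2 was 2.19-fold lower (-1.13, edgeR adjusted p = 7.77e-04) and Slc38a1 1.45-fold lower (-0.54, edgeR adjusted p = 0.00146). For these 6 genes no rapamycin mouse overlapped a day 13 mouse. The share of all genes tested that part in this way was not counted. The call of Slc38a1 was lost without day 13 mouse B (-0.49, edgeR adjusted p = 0.00285). Slc38a2 (-0.45, edgeR adjusted p = 0.0481) and Slc6a9 (-0.48, edgeR adjusted p = 0.0345) passed the adjusted p but not the fold minimum, and Slc7a11 (-0.43, edgeR adjusted p = 0.0801) and Slc1a5 (-0.47, edgeR adjusted p = 0.0872) passed neither. Without day 13 mouse C all 10 were called lower, among them Slc7a11 by -0.54 and Slc1a5 by -0.62 (edgeR adjusted p = 0.0358 and 0.0194). The share of all genes called without that mouse is not reported here, so this count cannot be set against it. The rapamycin and day 13 mice come from different series of animal numbers, and drug and series cannot be told apart.

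The mice of days 8 and 13 differed among themselves, and the same mice were high for most transporters. On day 8, mice A and C both lay above mice B and D for 7 of the 10 (Slc7a1, Slc7a3, Slc7a5, Slc3a2, Slc1a4, Slc38a1 and Slc38a2), an order that 24.3% of all genes tested showed. It was described after the values were seen, and Slc7a3 had been picked for its day 8 rise. Slc7a3, with a coefficient of variation of 42.8% on day 8, stood at 45.6 and 55.2 CPM in mice A and C and 24.6 and 23.0 CPM in mice B and D. Gfap, an intermediate filament gene that rises in reactive astrocytes, followed the same order, at 681 and 900 CPM in mice A and C and 127 and 158 CPM in mice B and D. In controls it measured 162 to 209 CPM. On day 8, 0 of 5 astrocyte markers were called higher than in controls, Gfap included, and 1 was called lower (Gja1, -0.56, edgeR adjusted p = 4.52e-04). On day 13, mouse B was the highest for 9 of the 10 transporters and for 30.4% of all genes tested, and its Gfap, at 1356 CPM, was the highest of the 24 mice. Gfap was higher on day 13 than in controls (log2 fold change 1.91, edgeR adjusted p = 0.00466) and lower in rapamycin mice than in controls (-0.77, edgeR adjusted p = 3.81e-04). The summed level of the 5 astrocyte markers was 616 to 655 CPM in controls, 464 to 1373 on day 8, 753 to 1766 on day 13 and 445 to 497 under rapamycin. This sum includes Gfap, which gave 162, 209, 186 and 201 of the 616, 655, 640 and 655 CPM in controls A to D. On day 13 Gfap gave 751, 1356, 372 and 437 of 1090, 1766, 753 and 842 CPM in mice A to D. The higher sums of day 13 are thus not a rise of the astrocyte markers as a set. On day 13, 1 of these 5 markers was called higher than in controls (Gfap) and 1 lower (Gja1, -0.93, edgeR adjusted p = 0.0446). The part of astrocytes in the transporter levels was not tested.

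**Figure D4:**
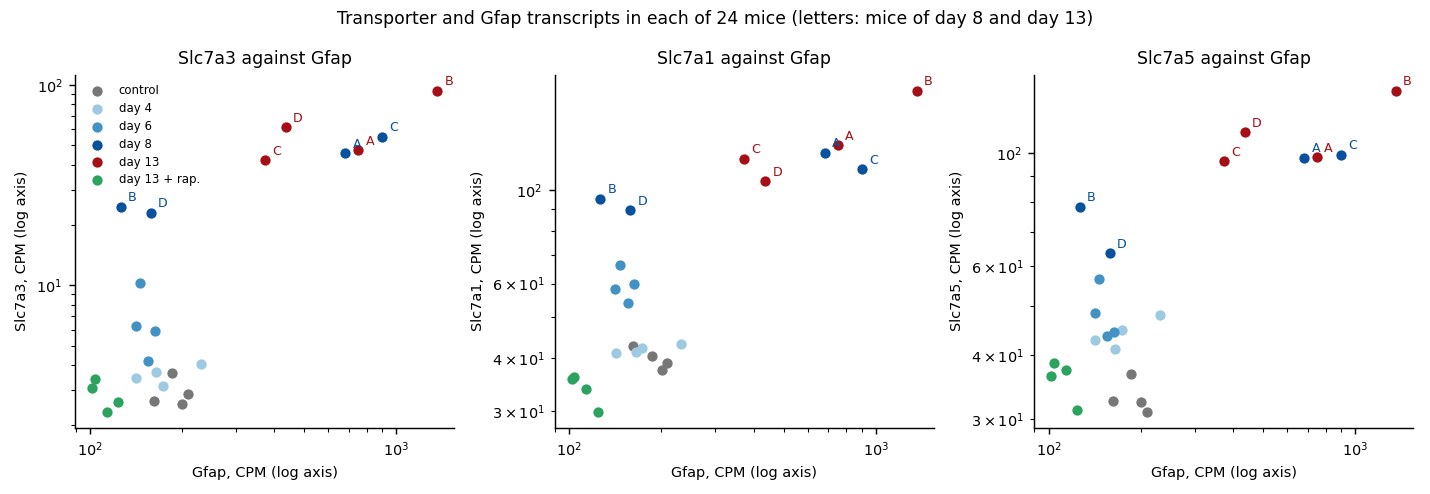
Slc7a3, Slc7a1 and Slc7a5 (vertical log axes, CPM) against Gfap (horizontal log axis, CPM) in each of 24 mice, coloured by group, with letters for the mice of days 8 and 13. Day 8 mice B and D sit at 127 and 158 CPM of Gfap, below every control, and mice A and C at 681 and 900 CPM.

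For comparison, 2 further lists of genes were counted in the same way. Of 32 further amino acid transporters, 28 were tested. Of these, 0 were called on day 4, 2 rose on day 6, 3 rose on day 8, and 5 rose and 3 fell on day 13, with a median log2 fold change of -0.09 on day 13. Slc38a5, a glutamine transporter of the same family as Slc38a1, rose by 1.33 on day 8 (edgeR adjusted p = 0.0268) and 1.29 on day 13 (edgeR adjusted p = 0.0241), and Slc6a7, a proline transporter, by 0.81 (edgeR adjusted p = 2.07e-04) and 1.00 (edgeR adjusted p = 1.48e-04). Slc6a17 rose by 0.96 on day 13 (edgeR adjusted p = 0.00788). The falls on day 13 included Slc6a20a (-0.89, edgeR adjusted p = 0.0327) and Slc16a10 (-0.55, edgeR adjusted p = 0.0126). Of 25 ATF4 pathway genes that are not transporters, 1 rose by day 4, 13 by day 6, 18 by day 8 and 22 by day 13, none fell, and the median log2 fold change was 1.6 on day 8 and 2.14 on day 13. Trib3, which encodes a pseudokinase, rose by 3.81 on day 8 (edgeR adjusted p = 0.00159), Chac1, an enzyme that breaks down glutathione, by 3.53 (edgeR adjusted p = 2.06e-05), and Eif4ebp1, a repressor of translation, by 2.87 (edgeR adjusted p = 5.62e-04). Atf4 itself rose by 0.60 on day 6 (edgeR adjusted p = 2.45e-05), 1.57 on day 8 (edgeR adjusted p = 2.1e-04) and 1.96 on day 13 (edgeR adjusted p = 2.56e-04). In rapamycin mice 22 of the 25 were lower than on day 13, with a median of -2.32, and none was called against control. Of the 28 other transporters, 5 were lower and 2 higher than on day 13 under rapamycin. None of these lists was compared with another by a test.

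**Figure D5:**
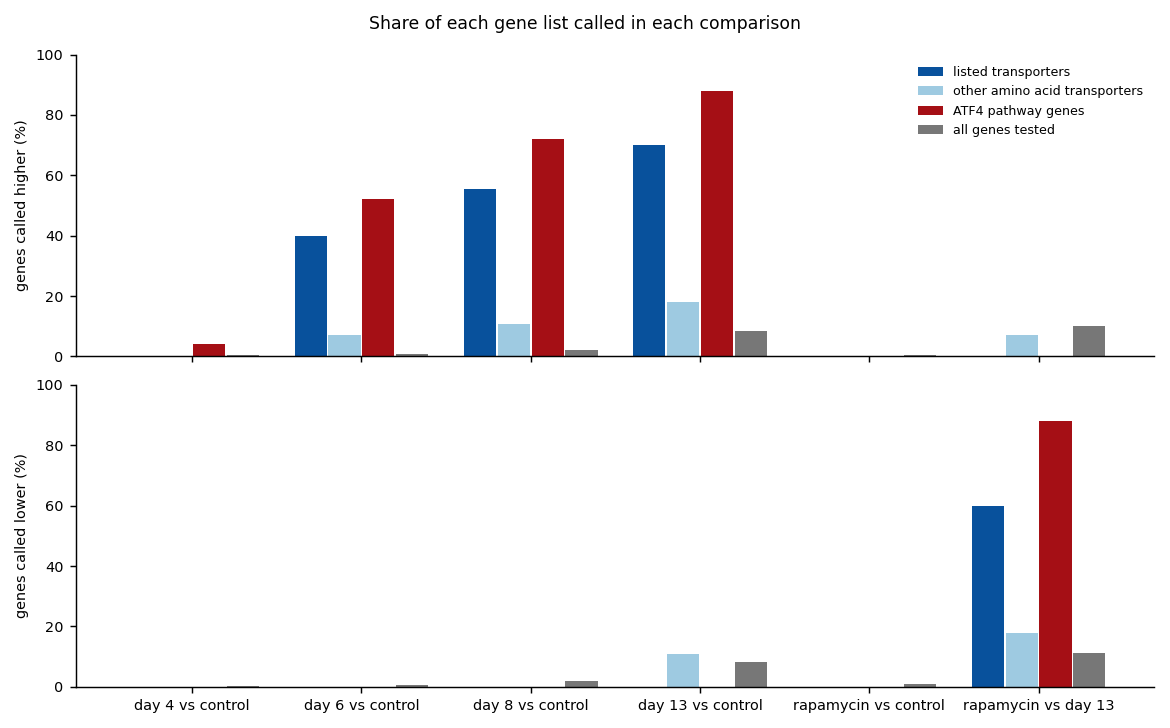
Percent of each gene list (vertical axes, 0 to 100) called higher (upper panel) or lower (lower panel) in 6 comparisons, for the listed transporters (10, or 9 without Slc7a3 on day 8), 28 other amino acid transporters, 25 ATF4 pathway genes and all genes tested. On day 13, 7 of the 10 transporters and 22 of the 25 pathway genes were called higher, against 8.4% of all genes.

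Over the 24 mice, the genes whose log2 CPM followed each transporter most closely were found by Pearson correlation among 13899 protein-coding genes with a mean of at least 1 CPM. The 24 points share their 6 groups, so these values mostly describe group differences, and no p is given. Every correlation with Slc7a3 includes the day 8 values for which that gene was picked, and is a description. Slc7a3 lay closest to Asns, which makes asparagine (r = 0.991), and to Nars and Aars, which charge tRNAs with asparagine and alanine (r = 0.991 each). Slc7a1 lay closest to the tRNA synthetase gene Yars (r = 0.992), Chac1 (r = 0.990) and Atf4 (r = 0.989). Slc7a5 lay closest to Aars (r = 0.983), Cars and Asns, and Slc1a4 to Chac1 (r = 0.983), Psph and Aldh18a1, enzymes of serine and proline synthesis for the latter pair. Slc3a2 lay closest to Rplp0, a ribosomal protein gene (r = 0.983), Eif3c and Tars. Slc38a1 lay closest to Scpep1 (r = 0.949), Dok5 and Atf4. The remaining 4 had no such close companions: the highest correlation was 0.909 for Slc38a2 (Cry1), 0.834 for Slc6a9 (Arhgef2), 0.823 for Slc7a11 (Lyz2) and 0.807 for Slc1a5 (Mgp). Among the transporters themselves, Slc7a1 and Slc1a4 were the closest pair (r = 0.986, n = 24 mice), followed by Slc7a3 and Slc7a5 (r = 0.981), while Slc1a5 reached at most 0.461 with any other.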

How the data were processed

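Hippocampal total RNA of 24 mice, depleted of rRNA and made into stranded libraries, was measured by sequencing, 1 library per mouse. The authors trimmed reads with cutadapt 1.16.5, aligned them with STAR 2.7.2b to GRCm38, counted them per GENCODE M24 gene with featureCounts 1.6.4 and deposited the raw counts without normalization. The strand setting and the handling of multi-mapping reads are not given in the sources used here, so overlapping genes and near copies are called uncertain. Names and coordinates come from GENCODE M21, in which 55144 of 55385 identifiers were found, and promoter windows from RefSeq on GRCm38.p6.

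Groups and mouse letters come from sample titles. No 2 files were identical. Each comparison used the 8 mice of its groups, edgeR 4.0.16 in R 4.3.3 with filterByExpr, TMM, the quasi-likelihood test and Benjamini-Hochberg adjustment over all genes tested, checked on simulated data. Calls need an adjusted p below 0.05 with the log2 fold change beyond 0.5 either way, and intervals are 95%. Levels are CPM with TMM factors of all 24 mice, and per kb values divide by merged exon length. Depth limits the precision of low genes such as Slc1a5. Each mouse is 1 animal. Where 2 groups are said not to overlap, the share of all genes that did so was not counted.

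The 10 transporters, the comparison lists and the tests were chosen with earlier results of these data known. All 10 are named in every comparison, at most 3 rises and 3 falls of each other list, and for each transporter up to 3 of its closest protein-coding genes. Genes added after their values were seen are Atf4 beside the pathway list, Asns as a motif example, Gfap and Gja1. Alternatives were DESeq2 1.42.0, size factors of DESeq2 in place of TMM, edgeR with all 24 mice fitted together, low counts kept, the mouse letter as a replicate block, the animal number series as a block for day 8, Xist as a covariate, no fold minimum and each mouse left out. Mouse sex, for which the Xist level stands here, was not used otherwise. Some results for single genes of the comparison lists are not reported here.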

Additional observations from a re-analysis of the deposited data

Results flagged for a closer look

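Slc1a4 on day 13 was flagged because mouse B, at 159.5 CPM, stood far from the other 3 mice, which measured 105.4, 101.8 and 108.6 CPM. The gap to the nearest mouse was 0.881 of the group's range, above the 95% critical value of Dixon's test for 4 mice. In all, 60 sets of 4 mice (10 transporters in 6 groups) were examined, and chance alone flags about 1 in 20. Without mouse B the log2 fold change of Slc1a4 on day 13 was 1.24 (edgeR adjusted p = 3.47e-05), against 1.40 with it.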

How the results depend on the processing

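Of 26 called results on single transporters, 16 kept their call in every alternative tried, and over all 26 the call held in 324 of 369 alternatives and was lost in 45, with no change of direction. The 61 results that were tested and not called kept direction and call in 801 of 858 alternatives, passed the test in 22 and changed sign in 35. The 3 values of Slc7a3 given as a description kept their sign in 43 of 43. All 60 group means moved by less than 1 SD with DESeq2 size factors. The cause of these changes was not tested. Depth limits Slc1a5, which had 54 to 418 counts a mouse.

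The number of transporters called against control moved from 0 to 1 on day 4 with DESeq2 and to 2 with no fold minimum, and from 4 to 2 on day 6 with Xist as a covariate. From day 4 to day 6 it moved from 1 to 0 in edgeR on all 24 mice and to 3 with no fold minimum. From day 6 to day 8 it moved from 3 to 0 with Xist as a covariate and to 5 with no fold minimum, and from day 8 to day 13 from 0 to 1 in edgeR on all 24 mice. With no fold minimum, 1054 of all genes passed on day 4, 1042 for day 6 against day 4 and 104 for day 8 against day 6. The counts over all genes moved by more than 1.5 times in some alternatives: with edgeR on all 24 mice from 172 to 29 on day 4, from 332 to 84 on day 6, from 352 to 162 for rapamycin against control, from 152 to 19 for day 6 against day 4, from 57 to 96 for day 8 against day 6 and from 0 to 1343 for day 13 against day 8. Day 8 against day 6 gave 310 calls with DESeq2, 192 with no filter and 0 with Xist as a covariate. Day 13 against day 8 gave 238 with DESeq2. Xist as a covariate gave 107 calls on day 4 and 195 on day 6, and no filter gave 255 for day 6 against day 4.

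Leaving out 1 mouse at a time, the number of transporters called was 2 to 4 on day 6, 0 to 3 for day 6 against day 4, 0 to 4 for day 8 against day 6 and 5 to 10 for rapamycin against day 13. Counts over all genes with 1 mouse left out are not reported here. Signs turned, in results near 0 that were not called, for Slc1a4 (-0.020 to 0.069), Slc38a1 (-0.017 to 0.083) and Slc6a9 (-0.052 to 0.027) on day 4, for Slc7a11 (-0.061 to 0.412) and Slc1a5 (-0.050 to 0.147) on day 8, and for Slc7a11 on day 13 (-0.058 to 0.232). They turned for Slc7a3 (-0.144 to 0.079) and Slc3a2 (-0.083 to 0.006) between rapamycin and control, and for Slc7a11 (0.000 to 0.170) and Slc3a2 (-0.036 to 0.021) between days 4 and 6. Between days 8 and 13 they turned for Slc7a11 (-0.315 to 0.090), Slc1a4 (-0.048 to 0.218) and Slc38a2 (-0.089 to 0.144). With Xist as a covariate, Slc1a4 (-0.002) and Slc6a9 (0.021) turned on day 4 and Slc38a2 (-0.081) between days 8 and 13. Between days 4 and 6, Slc3a2 turned with DESeq2 (0.001), edgeR on all 24 mice (0.008) and no filter (0.000).

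The mouse letters name different animals, and mice with the same letter did not deviate together (correlations of -0.240 to 0.133 over 36 pairs). With the letter as a replicate block, 4 transporters were called on day 6, 5 on day 8, 7 on day 13, 6 for rapamycin against day 13 and 4 for day 8 against day 6, and the sign of Slc38a2 between days 8 and 13 turned (-0.009). Over all genes tested, that block gave 299 calls of 25057 on day 6, 797 of 25085 on day 8 and 3546 of 24920 on day 13. It gave 4531 of 24274 for rapamycin against day 13 and 60 of 24871 for day 8 against day 6. With the animal number series as a block, 5 of 9 were called on day 8, against 934 of the 25085 genes tested.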
